A study of Homo sapiens with 12 samples.

Results

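The basal and stress keratins KRT5, KRT14, KRT15, KRT6A, KRT16 and KRT17 were described in JHU-029 and FaDU, established cell lines from head and neck squamous carcinoma, after knockdown of TP63, which encodes the transcription factor p63. The members were taken by gene symbol. Of the 6 members, 4 (KRT5, KRT14, KRT15 and KRT16) had a probe set listed with that symbol alone, among 18404 genes so named. KRT6A and KRT17 are not analysed here. Each measured member had 1 such probe set. The 12 single arrays formed 4 groups of 3, namely JHU-029 shControl, JHU-029 shTP63, FaDU shControl and FaDU shTP63. The shControl cells received a lentiviral control vector, the shTP63 cells a lentiviral shRNA against TP63, and RNA was taken from all groups 72 hours later. TP63 has no value here, and how deep the knockdown went is not analysed here. The labels do not say whether replicates were separate cultures, and p-values then measure only the spread between these samples, which may be technical.

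Keratins are the intermediate filament proteins of epithelial cells. A filament is built from pairs of 1 type II and 1 type I keratin, and the pair in use marks the state of the cell. Basal cells of stratified epithelium make type II KRT5 with type I KRT14, and KRT15 is a further type I keratin of resting basal cells. Type II KRT6A with type I KRT16 and KRT17 are the stress keratins, which keratinocytes switch on after wounding, in inflammation and in squamous carcinoma. p63 is the lineage factor of basal stratified epithelium and is known to act on KRT5 and KRT14.

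The promoter of KRT5 is shown because it was the only member promoter available. KRT5 also had the largest fall among the measured members, and p63 is known to act on it. RefSeq (GRCh38.p14) gave 1 member promoter, that of KRT5 at chr12:52520395-52520644 on the minus strand. The window holds the 250 bases before the annotated start, 5′ to 3′, and capitals mark the single match to the decamer of the p53 family response element, which p63 shares with p53.
KRT5 promoter: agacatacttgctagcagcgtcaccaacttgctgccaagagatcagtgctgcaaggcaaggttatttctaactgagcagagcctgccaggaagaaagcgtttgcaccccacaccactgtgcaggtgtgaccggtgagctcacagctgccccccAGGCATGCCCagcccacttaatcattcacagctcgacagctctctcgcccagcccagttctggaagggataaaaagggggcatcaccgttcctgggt
The match spans bases 97 to 88 before the start. It is 1 decamer, a part of the response element and not a full one, and the window holds no second match. The match includes the only CATG of the window. That decamer, searched on both strands, occurred in 5.57% of 35116 RefSeq promoter windows of the same length, and CATG in 47.6%. The AP-1 motif TGANTCA, the AP-2 motif GCCNNNGGC and the Sp1 motif GGGCGG were searched on both strands too and had 0 matches here, against 6.57%, 19.8% and 42.6% of all windows. The core promoter motif TATAAA, searched in the same way, had 0 matches, against 10.7% of all windows. Its variant ATAAAA had 1 match, 29 bases before the start, and occurred in 14.8% of all windows. A match is a run of letters in this window and not a measured binding site. KRT14, KRT15, KRT6A, KRT16 and KRT17 had no entry matched.

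Arrays of 1 group correlated at 0.993 to 0.997 across probe sets, and the median SD between the arrays of a group was 0.064 to 0.096 on the log2 scale. All 9 measured epithelial markers lay above the median of all genes in every group. Of the squamous markers 9 of 9 did so in JHU-029 and 8 of 9 in FaDU. In FaDU 9 of 9 squamous markers fell after knockdown, KRT5 among them, where 14.2% of all genes fell. Of these calls, that of GJB5 (limma adjusted p = 0.045) was lost in 14 alternatives and that of SOX2 (adjusted p = 0.0292) in 5. In JHU-029 1 of 9 squamous markers fell. Of the 9 epithelial markers 3 rose (KRT8, KRT18 and DSG2) and 3 fell (DSP and the members KRT5 and KRT14) in FaDU. In JHU-029 3 rose (EPCAM, KRT18 and DSG2) and 0 fell, where 1.8% of all genes rose and 1.35% fell. The FaDU call of DSG2 was lost in 16 alternatives and that of KRT8 in 1. The JHU-029 calls of EPCAM, DSG2 and KRT18 were lost in 6, 4 and 2. Of 10 endothelial, 11 immune and 12 fibroblast markers, at most 2, 1 and 3 lay above that median in any group. These were CDH5 and CLDN5, CD68, and COL1A1, FBLN1 and FAP, while PECAM1, PTPRC and COL1A2 lay below it. CDH5, a cadherin of endothelium, rose in FaDU from a mean of 8.69 to 9.69 (limma adjusted p = 1.25e-06). In FaDU 2 endothelial (CDH5 and ESAM), 2 immune (CD14 and LYZ) and 1 fibroblast marker (FBLN1) rose after knockdown, where 12.4% of all genes rose. The ESAM call was lost in 4 alternatives and the FBLN1 call in 1. In JHU-029 no marker of these 3 lists was called. In FaDU the summed log2 levels of endothelial markers were 9.76 to 9.80 in shControl and 10.30 to 10.39 in shTP63 arrays. For immune markers they were 11.20 to 11.23 and 11.25 to 11.42, and for fibroblast markers 10.42 to 10.49 and 10.60 to 10.66. The part of these markers in the keratin results was not tested.

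The basal keratins fell in FaDU after TP63 knockdown, and in JHU-029 no measured member passed the test. By limma with an adjusted p under 0.05, 3 of the 4 measured members (KRT5, KRT15 and KRT14) fell in FaDU and 0 rose, where 14.2% of all genes fell and 12.4% rose. In JHU-029, 0 of 4 passed in either direction, where 1.35% of all genes fell and 1.8% rose (3.15% in all). Arrays of KRT5, KRT14 and KRT15 did not overlap between the FaDU groups, each lower with shTP63, as held for 18% of all genes, while 18.1% lay wholly higher. The median change of the 4 members was -0.87 in FaDU on the log2 scale, against 0.02 over all genes, and -0.08 in JHU-029, against 0.00. In bulk RNA, fewer cells that make a keratin and less of it per cell cannot be told apart.

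**Figure D1:**
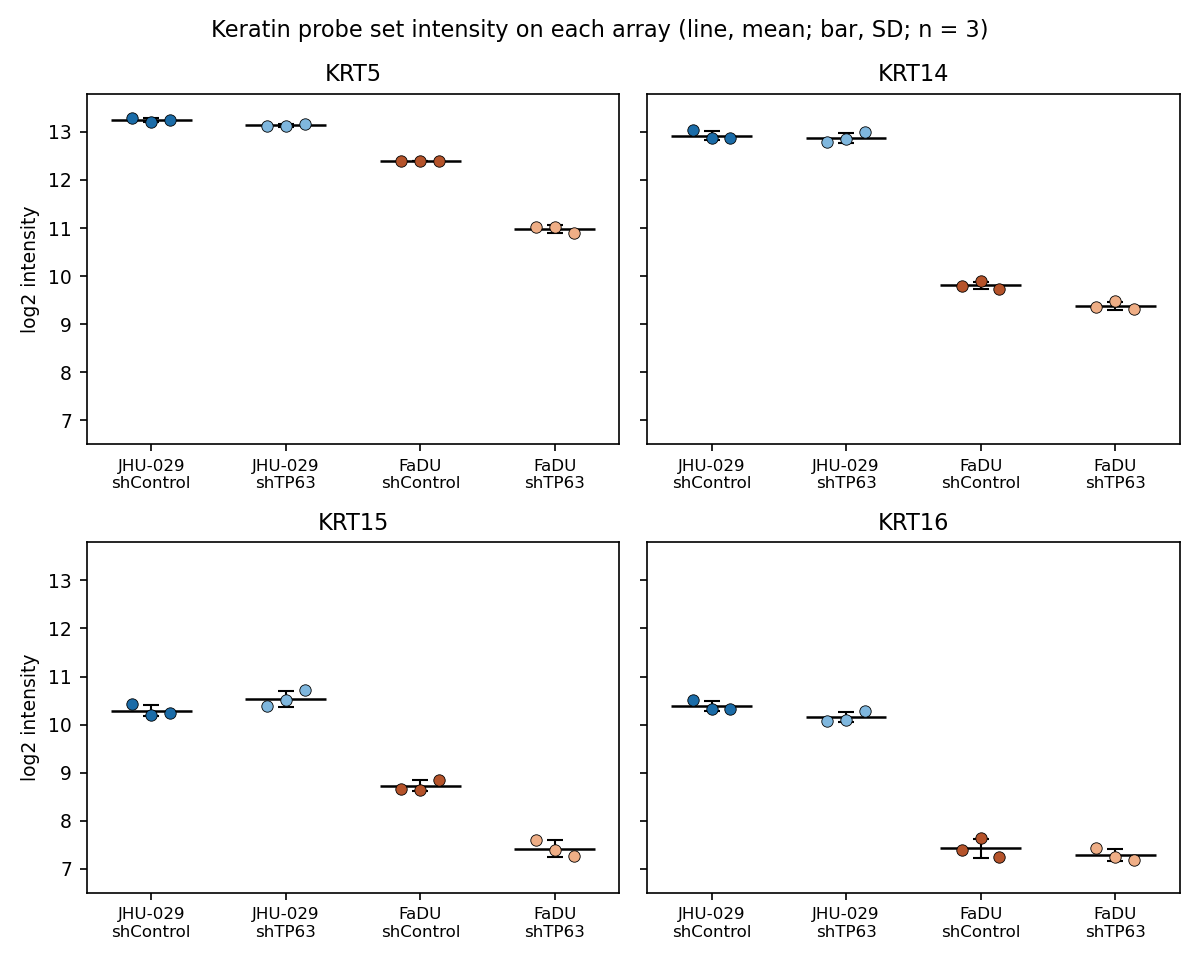
Log2 intensity of the KRT5, KRT14, KRT15 and KRT16 probe sets (vertical axis) on each of the 12 arrays in the 4 groups (horizontal axis), with points for arrays, lines for group means and bars for the SD (n = 3). All 4 keratins lie lower in FaDU than in JHU-029, and KRT5 and KRT15 drop further in FaDU shTP63, to means of 10.98 and 7.42.

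KRT5 (probe set 7963427), the type II keratin of basal cells, had log2 intensities of 12.39, 12.39 and 12.40 on the FaDU shControl arrays and 11.02, 11.03 and 10.89 on the FaDU shTP63 arrays. The groups lay 1.36 apart at their nearest arrays. The fall was 2.66-fold (log2 -1.41, SE 0.05, limma adjusted p = 1.37e-08), the 21st largest of 18404 genes in this line. In linear terms the 3 control arrays, at 5376 to 5391, hardly differed from one another. In JHU-029 the log2 values were 13.30, 13.20 and 13.24 with shControl and 13.12, 13.12 and 13.17 with shTP63. The JHU-029 shTP63 arrays all lay below the shControl arrays, by 0.03 at the nearest, an arrangement seen in that direction for 11.7% of all genes and in the other for 13.3%. The difference there was -0.11, with a 95% interval of -0.23 to 0.01 and a limma adjusted p = 0.369.

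KRT15 (probe set 8015337), the type I keratin of resting basal cells, had log2 intensities of 8.67, 8.64 and 8.85 on the FaDU shControl arrays and 7.60, 7.40 and 7.26 on the shTP63 arrays. Every knockdown array lay at least 1.04 below the lowest control. KRT15 fell 2.47-fold (log2 -1.30, SE 0.11, limma adjusted p = 2.66e-06), the 31st largest fall in FaDU. In JHU-029 the values were 10.42, 10.21 and 10.23 with shControl and 10.39, 10.51 and 10.72 with shTP63. Here the groups overlapped, since the lowest shTP63 array lay just under the highest shControl array. The difference was 0.25 on the log2 scale, with a 95% interval of 0.02 to 0.48, and did not pass over all genes (limma adjusted p = 0.275).

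KRT14 (probe set 8015366), the type I partner of KRT5, had log2 intensities of 9.79, 9.89 and 9.74 on the FaDU shControl arrays and 9.35, 9.48 and 9.32 on the shTP63 arrays. The groups did not overlap and lay 0.26 apart. KRT14 fell 1.35-fold (log2 -0.43, SE 0.07, limma adjusted p = 0.000818), which ranked 995th among falls in FaDU. In JHU-029 the values were 13.03, 12.88 and 12.87 with shControl and 12.79, 12.85 and 12.99 with shTP63, so the groups overlapped. The difference was -0.05, with a 95% interval of -0.21 to 0.11 (limma adjusted p = 0.872).

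KRT16 (probe set 8015376), the type I stress keratin, had log2 intensities of 7.40, 7.63 and 7.24 on the FaDU shControl arrays and 7.42, 7.25 and 7.18 on the shTP63 arrays, which overlapped. The difference was -0.14, with a 95% interval of -0.36 to 0.09 (limma adjusted p = 0.38). Titles of 2 FaDU shControl arrays carry an extra word, which no FaDU shTP63 title carries. Without both, a single FaDU control array was left and the value was 0.05. In JHU-029 the values were 10.51, 10.33 and 10.32 with shControl and 10.08, 10.11 and 10.28 with shTP63, all of the latter below the former by at least 0.04. Such an arrangement was seen in that direction for 11.7% of all genes and in the other for 13.3%. The KRT16 difference of -0.23 in JHU-029, with a 95% interval of -0.46 to -0.01, did not pass over all genes (limma adjusted p = 0.305). KRT16 has near-identical pseudogenes, and a further probe set is listed with KRT16 and KRT16P1, KRT16P2 and KRT16P3 together. That shared probe set, added after the data were seen, gave changes of -0.10 in FaDU (limma adjusted p = 0.574) and -0.21 in JHU-029 (adjusted p = 0.469). How far the pseudogenes or other keratins contribute to the KRT16 signal was not tested.

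**Figure D2:**
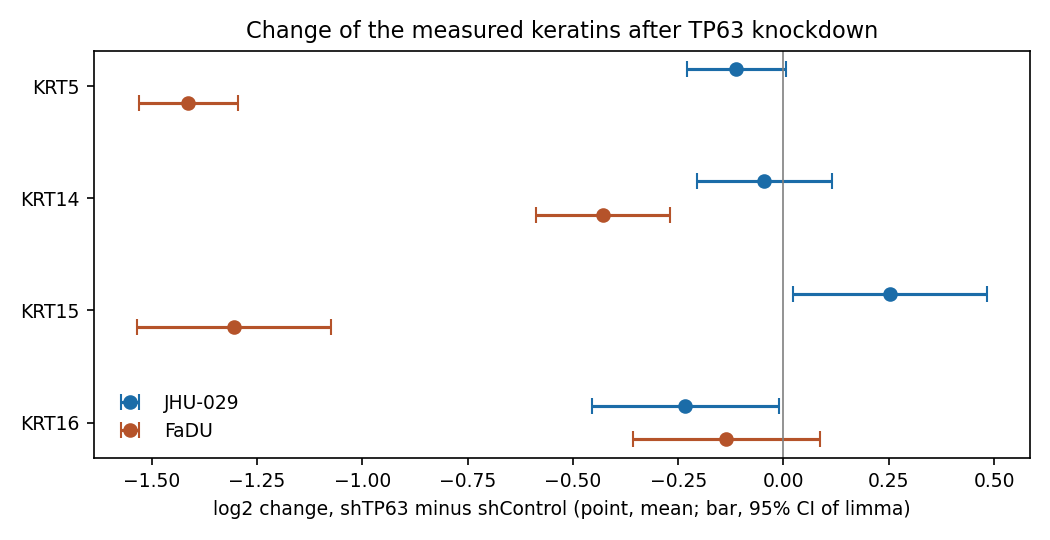
Log2 change of each measured keratin, shTP63 minus shControl (horizontal axis), for JHU-029 and FaDU, with points for means of 3 against 3 arrays and bars for the 95% confidence interval of the limma fit. KRT5, KRT15 and KRT14 lie below 0 in FaDU with intervals that do not meet those of JHU-029, narrowly so for KRT14, whose FaDU interval ends at -0.27 and JHU-029 interval begins at -0.21.

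The response of 3 of the 4 measured members differed between the lines by the limma test of the difference itself, where 13.2% of all genes passed, 8.25% with a more negative effect in FaDU and 4.97% with a more positive one. For KRT15 the FaDU effect minus the JHU-029 effect was -1.56 (SE 0.15, adjusted p = 5.23e-05), the 11th most negative of all genes. For KRT5 it was -1.30 (SE 0.08, adjusted p = 1.9e-06), the 20th most negative. Both passed in all 21 alternative fits. For KRT14 it was -0.38 (SE 0.10, adjusted p = 0.0295), a call that ended when any 1 of 7 arrays was left out (highest adjusted p = 0.08). These were array 2 or 3 of either JHU-029 group, FaDU shControl array 2, and FaDU shTP63 array 1 or 3. For KRT16 the difference was 0.10, with a 95% interval of -0.22 to 0.41 (adjusted p = 0.744).

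KRT5 was set against each other measured keratin on the same array. The log2 difference between KRT5 and KRT14 in FaDU went from 2.59 ± 0.0774 (SD, n = 3) with shControl to 1.60 ± 0.0649 with shTP63. These values did not overlap, and their difference was -0.99 (exact two-sided permutation p = 0.1, adjusted p = 0.2 over 6 comparisons). With 3 against 3 arrays 0.1 is the smallest p such a test can give. The difference between KRT5 and KRT15 shifted by -0.11 in FaDU, with overlapping arrays (exact permutation p = 0.4, adjusted p = 0.4). In JHU-029 the same pair shifted by -0.37 without overlap (exact permutation p = 0.1, adjusted p = 0.2), and KRT5 against KRT14 by -0.07 with overlap (exact permutation p = 0.4). KRT5 against KRT16, added because KRT6A was not analysed, shifted by -1.28 in FaDU without overlap (exact permutation p = 0.1, adjusted p = 0.2) and by 0.12 in JHU-029 with overlap (exact permutation p = 0.2, adjusted p = 0.3).

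With the control vector the lines differed in every measured member. By limma all 4 were lower in FaDU shControl than in JHU-029 shControl, where 63.8% of all genes passed, 30.4% lower and 33.4% higher. No array of either line overlapped for any of the 4, as held in that direction for 32.4% of all genes and in the other for 36.6%. KRT14 was 8.68-fold lower in FaDU (log2 -3.12, SE 0.07, adjusted p = 2.82e-12), and KRT16 7.80-fold lower (log2 -2.96, SE 0.10, adjusted p = 5.82e-11). These ranked 115th and 145th among the genes lower in FaDU. KRT15 was 2.96-fold lower (log2 -1.56, adjusted p = 2.97e-08) and KRT5 1.81-fold lower (log2 -0.85, adjusted p = 1.53e-08). The members thus fell into different orders in the 2 comparisons. KRT14 and KRT16 differed most between the lines and less or not detectably on knockdown in FaDU, while KRT5 and KRT15 differed less between the lines and fell further on knockdown. These comparisons share the FaDU control arrays. For KRT5 and KRT14 the order of group means from high to low was JHU-029 shControl, JHU-029 shTP63, FaDU shControl, FaDU shTP63, and the JHU-029 groups did not pass the test for either gene. The KRT5 arrays of those groups did not overlap. KRT16 had the same order, and neither of its neighbouring groups within a line passed the test. For KRT15 the JHU-029 groups stood in the other order.

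The members sat at different heights in the range of the array. In JHU-029 shControl only 4 genes had a mean at least as high as that of KRT5, itself included, and 20 as high as that of KRT14. In FaDU shControl the numbers were 81 for KRT5 and 2426 for KRT14. KRT16 in FaDU lay near the middle, with 46.8% of genes as high or higher. At the bright end, 175 genes had a JHU-029 shControl mean of at least 12 on the log2 scale, and 5 of them (2.86%) passed the knockdown test there, against 3.15% of all genes. Their median absolute change was 0.04, against 0.07 over all genes. The largest fall among these 175 was that of the glycolytic enzyme TPI1, at -0.84. In FaDU 161 genes reached 12, of which 18% passed against 26.6% of all genes, and KRT5 had the largest fall of them.

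Most other keratins were dim on these arrays. A mean at or above the median of all genes in at least 1 group was seen for 6 of 19 other measured type II keratins and 4 of 24 other type I keratins. Of the 19 type II keratins 2 rose in FaDU and 0 fell, where 12.4% of all genes rose and 14.2% fell. The 2 rises were those of KRT8, a keratin of simple epithelium, by 0.36 (SE 0.08) and KRT80 by 0.35 (SE 0.08). Both calls were lost without both FaDU controls that carry the extra title word. Of the 24 type I keratins 1 rose, the KRT8 partner KRT18 by 0.31 (SE 0.05), and 1 fell, KRT13, a keratin of suprabasal mucosal epithelium, by 0.52 (SE 0.10). The KRT13 call was lost without both of those controls too (adjusted p = 0.0855). All 4 of these called keratins were among the 10 brighter ones. Median changes over the full lists were 0.01 and 0.00, against 0.02 over all genes. With dim genes left out they were 0.15 for type II and 0.09 for type I, against -0.01 over the genes kept. In JHU-029 KRT80 rose by 0.72 (SE 0.08) and KRT18 by 0.28 (SE 0.05), while KRT75, a hair follicle keratin, fell by 0.38 (SE 0.07), where 1.8% of all genes rose and 1.35% fell. The KRT18 call was lost without JHU-029 shControl replicate 2 and the KRT75 call without JHU-029 shControl replicate 1. Both were also lost with the fixed replicate block.

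**Figure D3:**
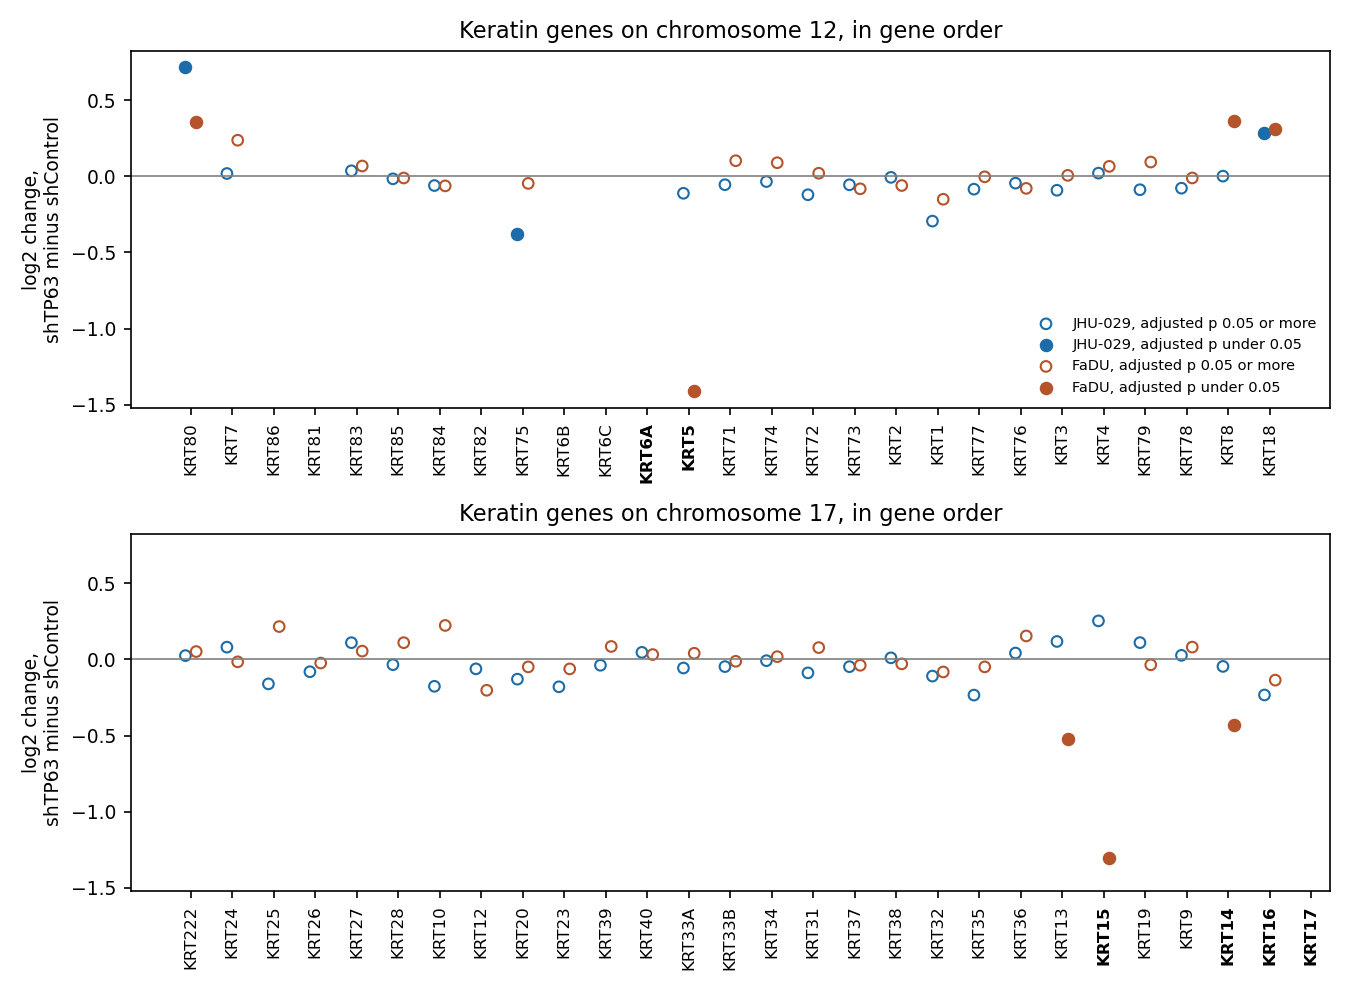
Log2 change of every protein-coding keratin gene on chromosomes 12 and 17, shTP63 minus shControl (vertical axis), in the order of the genes along the chromosome (horizontal axis, members in bold, no point for a gene not analysed here). Filled points passed the limma test at an adjusted p of 0.05. KRT5, KRT13, KRT15 and KRT14 are the filled FaDU points below 0, and KRT19 and KRT9 between KRT15 and KRT14 lie at -0.04 and 0.08.

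The human keratin genes lie in clusters, type II with KRT18 on chromosome 12 and type I on chromosome 17; the measured neighbours of the falling members are given for their position. On chromosome 12 KRT71, the measured gene next to KRT5, changed by 0.10 in FaDU (limma adjusted p = 0.256). On chromosome 17 the order is KRT13, KRT15, KRT19, KRT9, KRT14, KRT16 and KRT17. KRT19 and KRT9, chosen for their position after their values were seen, changed in FaDU by -0.04 (adjusted p = 0.844) and 0.08 (adjusted p = 0.666). The FaDU calls in the chromosome 17 cluster were thus KRT13, KRT15 and KRT14, which are not all adjacent.

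Next came genes that anchor or modify keratin filaments. Of 23 measured, 10 fell and 5 rose in FaDU, where 14.2% of all genes fell and 12.4% rose. The 5 rises became 3 without any 1 of 8 arrays (each JHU-029 shControl array, JHU-029 shTP63 arrays 2 and 3, FaDU shControl array 2, FaDU shTP63 arrays 2 and 3), with array medians centred, with either replicate block, without both FaDU controls with an extra title word and with each line fitted alone, PKP2 and DSG2 being the calls most often lost. SFN (14-3-3 sigma), an adaptor protein that binds keratins, fell by 1.07 (SE 0.06), the desmosomal cadherin DSC3 by 0.93 (SE 0.08) and the hemidesmosome integrin ITGA6 by 0.83 (SE 0.08). KLHL24, a ubiquitin ligase adaptor known to target KRT14 for degradation, rose by 1.06 (SE 0.14), the cornified envelope protein PPL by 0.61 (SE 0.08) and the desmosomal cadherin DSC2 by 0.26 (SE 0.06). In JHU-029 2 of 23 rose and 0 fell, where 1.8% of all genes rose and 1.35% fell. With a trend in the variance prior 6 fell, with dim genes left out 3 and with cyclic loess 2. The 2 rises in JHU-029 were those of plakophilin PKP2, by 0.33 (SE 0.05), and DSG2, by 0.26 (SE 0.05). The DSG2 call was lost on leaving out JHU-029 shControl array 1, shControl array 3 or shTP63 array 2. Both calls were lost with the fixed replicate block (highest limma adjusted p over all alternatives 0.0527 for PKP2 and 0.104 for DSG2). The list's median was -0.10 in FaDU and -0.11 in JHU-029. By the limma test of the difference between lines, 7 of the 23 had a more negative effect in FaDU and 2 a more positive one. Of all genes 8.25% and 4.97% did so. The 2 were KLHL24 (1.39, limma adjusted p = 0.000932) and PPL (0.58, adjusted p = 0.00686). The largest of the 7 were those of ITGA6 (-0.89), SFN (-0.89) and DSC3 (-0.64).

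Among 28 measured transcription factors and co-regulators reported to act on these keratin genes, 7 fell and 6 rose in FaDU, where 14.2% of all genes fell and 12.4% rose. The AP-1 subunit FOSL1 fell by 0.44 (SE 0.06), the thyroid hormone receptor THRA by 0.42 (SE 0.07) and MYC by 0.38 (SE 0.06). TFAP2C, an AP-2 factor, rose by 0.86 (SE 0.06), CEBPB by 0.37 (SE 0.07) and KLF4, a factor of keratinocyte differentiation, by 0.36 (SE 0.08). In JHU-029, where 1.8% of all genes rose and 1.35% fell, TFAP2C rose by 0.34 (SE 0.06), while KLF5 fell by 0.29 (SE 0.06) and MYC by 0.26 (SE 0.06). Leaving out JHU-029 shControl array 1 or shTP63 array 2 ended the TFAP2C call. Leaving out any JHU-029 shControl array or shTP63 array 2 ended that of KLF5, and leaving out any 1 JHU-029 array ended that of MYC. The fixed replicate block ended all 3 calls, and centring of array medians ended that of MYC. Over all alternatives the highest limma adjusted p was 0.0924 for TFAP2C, 0.0963 for KLF5 and 0.128 for MYC.

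Keratinocyte activation genes, whose products accompany or induce the stress keratins after wounding, had 8 of 28 falling and 4 rising in FaDU, where 14.2% of all genes fell and 12.4% rose. The 4 rises became 2 without FaDU shControl array 1, FaDU shTP63 array 1 or FaDU shTP63 array 3. The cytokine IL1A, an alarm signal of damaged keratinocytes, fell by 2.69 (SE 0.12), IL1B by 1.46 (SE 0.08) and the EGFR ligand TGFA by 1.21 (SE 0.08). LCN2 rose by 1.60 (SE 0.07), the protease PLAU by 0.64 (SE 0.05) and S100A9 by 0.31 (SE 0.09). The S100A9 call ended when FaDU array 1 or 3 of either group was left out, and with the fixed replicate block (highest limma adjusted p over all alternatives 0.0823). CCL20, a chemokine, rose by 0.30 in FaDU (limma adjusted p = 0.045), a call lost in 13 alternatives. Beside these, the KRT16 value in FaDU was -0.14 and did not pass. In JHU-029 4 fell and 2 rose, where 1.35% of all genes fell and 1.8% rose. IL36G fell by 0.64 (SE 0.07), a call kept in every alternative fit (highest limma adjusted p 0.00797). IL1A (by 0.49), IL1B (by 0.36) and TGFA (by 0.35) fell and LCN2 (0.38) and CCL20 (0.42) rose. The calls of IL1A, IL1B, TGFA and CCL20 were each lost without any single JHU-029 array and with either replicate block (limma adjusted p of up to 0.179 over all alternatives). That of LCN2 was lost when JHU-029 array 2 or 3 of either group was left out, and with the fixed replicate block (highest limma adjusted p over all alternatives 0.0805).

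Each member had different nearest genes when likeness was taken as the root mean square difference over the 12 arrays between log2 values centred on each gene's own mean. Nearest to KRT5 was MMP13, a collagenase of invasive squamous carcinoma, at 0.07, with TOMM34, a mitochondrial import protein, at 0.12 and TGFA at 0.14. MMP13 changed by -1.49 in FaDU and by 0.02 in JHU-029. Nearest to KRT15 were SNAI2, a zinc finger factor, at 0.20, the focal adhesion protein FERMT1 at 0.23 and the adaptor GRB10 at 0.23. SNAI2 changed by -1.43 in FaDU and by -0.01 in JHU-029. Nearest to KRT14 were TCF4 at 0.10, the serpin SERPINB5 at 0.11 and ZFAND2A at 0.13, and nearest to KRT16 were PLA2R1 at 0.12, TSC22D3, a glucocorticoid-induced gene, at 0.13 and LARGE2 at 0.14. The closest rank between members was that of KRT16, the 36th nearest gene to KRT14 (0.25), so no member was among the 3 nearest of another. KRT15 was the 396th nearest to KRT5 (0.45) and KRT14 the 10209th (0.97). The 12 arrays come from 4 groups and share the difference between the lines, so likeness is a description.

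**Figure D4:**
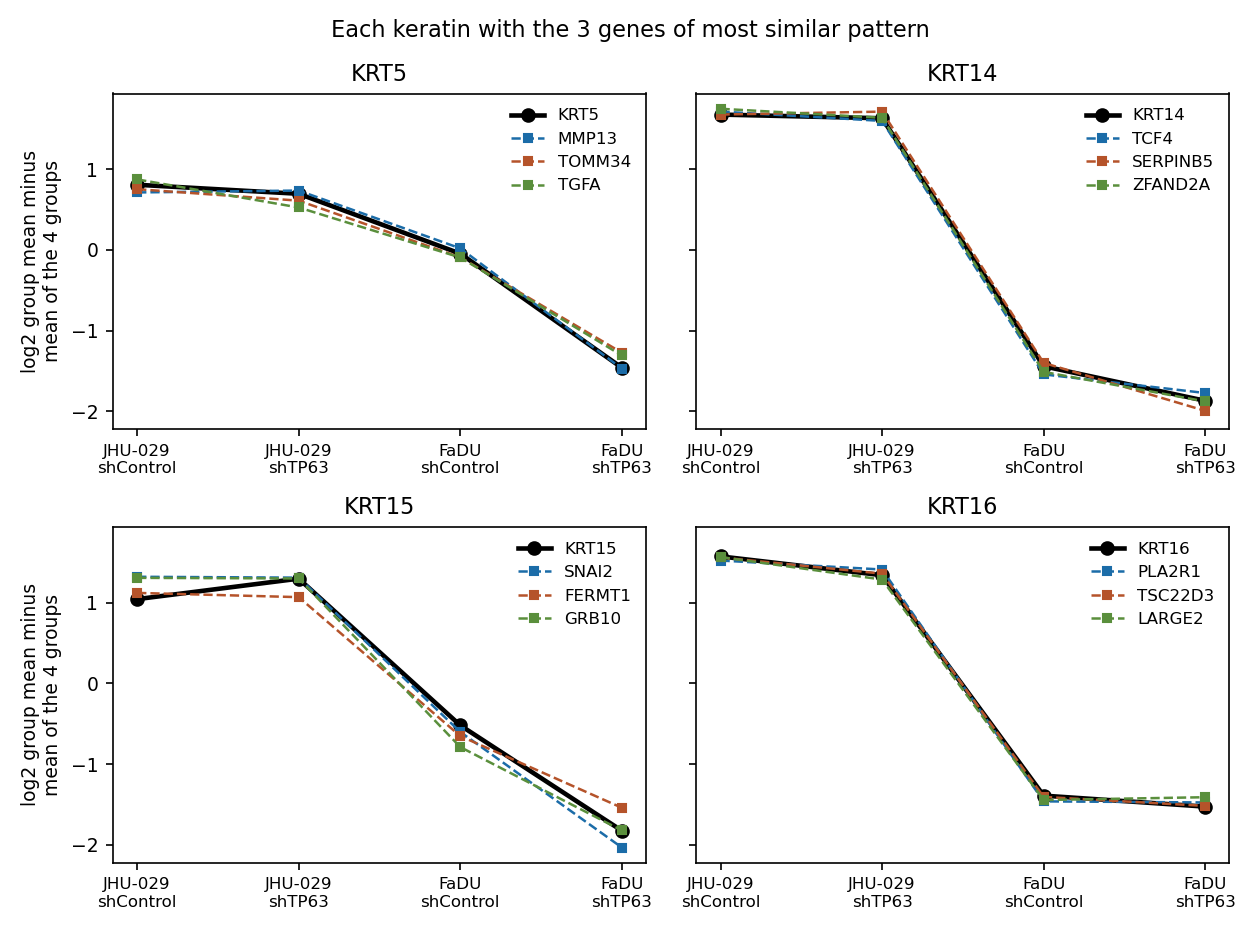
Group means of log2 intensity minus the mean of the 4 groups (vertical axis) for each keratin (black) and its 3 nearest genes (dashed), over the 4 groups (horizontal axis). KRT5 and KRT15 run with genes that step down between the lines and again in FaDU shTP63, while KRT14 and KRT16 run with genes whose main step lies between the lines.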

How the data were processed

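The deposited values are intensity on a linear scale, 1 value per probe set and array, made by the authors with RMA, with R 2.15.1 also named, per the submitters' processing notes. The sources used here name neither the RMA implementation nor the arrays it was run on together. Array medians were 88.2 to 94.6 over 32321 probe sets. RMA's quantile step forces equal distributions, so changes are relative to the array. Precision rests on how many arrays there are, since array values have no counts.

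Values were put on a log2 scale without a pseudocount. Of the probe sets, 19158 had 1 gene symbol in the platform annotation, 1388 several and 11775 were not listed. The probe set with the highest mean stood for each of 18404 genes. Limma 3.58.1 in R 4.3.3 was fitted to 4 groups on all 12 arrays (8 residual and 4.17 prior degrees of freedom), without a block. P-values are two-sided and adjusted within each contrast, over all 18404 genes, by the Benjamini-Hochberg method (threshold 0.05). "Rose" and "fell" are used of calls only. SE and 95% intervals come from this fit, the intervals unadjusted, and SD from 3 arrays. KRT6A and KRT17, and pair differences that need them, were left out. On simulated data of 18404 genes, log2 changes of 0.25, 0.5 and 1 were recovered at 22%, 78% and 100% for the FaDU contrast. For the JHU-029 contrast the shares were 20%, 63% and 100%. The simulation changed only 50, 100 and 50 genes at these sizes, against 4900 genes called in FaDU and 580 in JHU-029. Its Benjamini-Hochberg cutoff was thus stricter, and these shares do not give the recovery in the data.

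Members and gene lists were chosen with earlier results of these data known. Members were named throughout, and of each list up to 3 called genes per direction and line, plus the 3 genes nearest in pattern to each member. Alternatives left out each array, rescaled (median centring, cyclic loess), treated probe sets differently, left out dim genes, changed the variance prior, blocked on replicate number, fitted each line alone, or left out both FaDU controls with an extra title word. Leaving out both of those controls left a single FaDU control array, so that fit is a weak check. No shTP63 title carries the word, so anything it marks is not balanced between the FaDU groups. Promoter windows were matched by symbol (1 of 6 members).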

Additional observations from a re-analysis of the deposited data

Results flagged for a closer look

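For 3 members the effect of TP63 knockdown differed between the lines by the limma test of the difference, FaDU effect minus JHU-029 effect on the log2 scale. For KRT15 the difference was -1.56 (adjusted p = 5.23e-05), from effects of -1.30 in FaDU and 0.25 in JHU-029. For KRT5 it was -1.30 (adjusted p = 1.9e-06), from effects of -1.41 and -0.11. For KRT14 it was -0.38 (adjusted p = 0.0295), from effects of -0.43 and -0.05. The KRT14 call was marginal, at -0.44 to -0.33 over the 12 fits without 1 array, with a highest adjusted p = 0.08.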

How the results depend on the processing

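In FaDU the falls of KRT5, KRT15 and KRT14 passed in all 22 alternative fits, with log2 changes of -1.44 to -1.37, -1.44 to -1.22 and -0.48 to -0.36. In some of these, such as the fits without a JHU-029 array, the FaDU change could not move, only its SE and adjusted p. All 4 line differences under shControl passed in all 21. The KRT14 difference between the line effects missed the threshold with a fixed replicate block (-0.38, adjusted p = 0.0743) and without both FaDU controls with an extra title word (-0.32, adjusted p = 0.154), and ranged from -0.44 to -0.33 over fits without 1 array. The sign turned without those controls for KRT16 in FaDU (0.047) and without JHU-029 shControl replicate 1 for KRT14 in JHU-029 (0.0073; range -0.10 to 0.0073). Of 344 member values over the alternatives, 333 kept direction and side of the threshold, 9 lost the call and 2 turned sign. Not all of these could turn sign, since some fits left the values behind a contrast as they were. No pair difference turned sign in 48. The number of genes called in JHU-029, 580, became 229 to 626 without 1 array (269, 232 and 229 without shControl replicates 1, 2 and 3, 238 and 273 without shTP63 replicates 2 and 3), 1018 without dim genes, 1015 with a trend in the variance prior and 172 with the fixed replicate block. Its share of rises was 70.3% without shTP63 replicate 1, against 57.2%. For the difference between lines, 2433 became 1395 with that block. Same-numbered arrays did not deviate together (correlations of -0.34 to 0.01), so the numbers give no pairing. Differently numbered JHU-029 arrays correlated at -0.13 to 0.29, and a pairing other than by number was not tested. Pair differences with KRT6A or KRT17 were not run. KRT5 and KRT14 in JHU-029 lie near the top of the signal range and KRT16 in FaDU near its middle, as does KRT15 in FaDU shTP63 (7.42, against a median of 7.22 over all genes), and whether saturation or background narrows their changes was not tested.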
